A study of Mus musculus with 12 samples.

Results

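The data describe the respiratory chain and the ATP synthase of mouse hippocampus at the level of mRNA: 81 genes that encode subunits of complexes I to V or close relatives of them. The genes were chosen by symbol, as Nduf genes with the letters a, b, c, s or v for complex I, Sdha to Sdhd for complex II, Uqcr genes for complex III, Cox genes of the families 4 to 8 for complex IV and Atp5 genes for complex V, from the transcript clusters (the probe sets of the array) that the platform annotation gives to a single gene. They are 81 of the 19939 genes with such a cluster, with 35 in complex I, 4 in complex II, 8 in complex III, 17 in complex IV and 17 in complex V, and where a gene had several clusters the brightest was used. Hippocampal RNA of 6 MSN mice and 6 ICR mice was hybridized to Affymetrix Mouse Gene 1.0 ST arrays, 1 mouse per array, to learn how the hippocampus of a strain with a manic phenotype differs from that of its ancestral stock. MSN (Madison) is an inbred strain, descended from ICR mice that were bred for much wheel running and later for maternal defense, and ICR is the outbred hsd:ICR stock itself. All mice were adult males, drawn at random from animals whose locomotion had been recorded, and neither a transgene nor a drug treatment was compared. The day after that recording they were anesthetized with isoflurane and decapitated, and the hippocampus was taken. Strain is therefore compared as a whole genetic background, and MSN is 1 inbred line.

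Oxidative phosphorylation makes most of the ATP of neurons. Complex I takes electrons from NADH and complex II from succinate, ubiquinone carries them to complex III, cytochrome c carries them on to complex IV, and complex IV passes them to oxygen. Complexes I, III and IV pump protons out of the matrix, and ATP synthase (complex V) lets them flow back to form ATP. In the hippocampus this supply pays mainly for ion pumping and synaptic transmission. The genes listed here are all nuclear, while a few core subunits of complexes I, III, IV and V are encoded by mitochondrial DNA.

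The promoters of these genes are known for binding sites of NRF1, GABPA (also named NRF2) and YY1, and so their sequences were read as a feature that the choice by symbol did not use. A RefSeq promoter of 300 bases (250 before the transcription start and 50 after it) was at hand for 66 of the 81 genes. On either strand, the NRF1 core GCATGCGC was found in 10 of these 66 promoters (15.2%), against 758 of the 27025 promoters of all genes (2.81%). The looser form GCNTGCGC, which includes that core, was in 21 (31.8%, against 10.1% of all promoters), the GABPA core CCGGAAG in 16 (24.2%, against 9.12%) and the YY1 core AAGATGGC in 9 (13.6%, against 2.88%). No YY1 match lay wholly before the start, whereas 8 of the 10 NRF1 matches and 11 of the 16 GABPA matches did. By complex, the looser NRF1 form was in 8 of 31 promoters of complex I, 3 of 3 of complex II, 2 of 5 of complex III, 1 of 12 of complex IV and 7 of 15 of complex V, and 7 of the 9 YY1 matches were in complex I. The promoters of all genes were not matched to those of the 81 genes in brightness or base composition. A match is a description of these letters and not evidence of a bound site. The 250 bases before the start are shown for 3 genes, 5′ to 3′ on the gene's strand, with matches on either strand to the NRF1 core, its looser form or the GABPA core in capitals: Ndufa11 of complex I for its overlapping NRF1 cores on opposite strands, Cox6a1 of complex IV because it holds cores of both factors, and Atp5e of complex V because it had the lowest fold change of that complex.
Ndufa11 (GRCm38.p6, chr17:56717512-56717761, plus strand): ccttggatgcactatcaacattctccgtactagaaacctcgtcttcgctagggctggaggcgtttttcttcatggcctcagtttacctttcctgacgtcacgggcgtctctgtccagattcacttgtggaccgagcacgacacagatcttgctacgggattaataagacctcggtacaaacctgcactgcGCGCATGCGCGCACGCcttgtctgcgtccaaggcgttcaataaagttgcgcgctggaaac
Cox6a1 (GRCm38.p6, chr5:115348959-115349208, minus strand): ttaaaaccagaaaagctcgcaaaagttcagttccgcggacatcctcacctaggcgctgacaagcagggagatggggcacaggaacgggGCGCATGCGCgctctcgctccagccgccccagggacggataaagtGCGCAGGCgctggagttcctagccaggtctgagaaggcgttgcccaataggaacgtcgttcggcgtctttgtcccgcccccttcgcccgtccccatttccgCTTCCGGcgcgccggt
Atp5e (GRCm38.p6, chr2:174464102-174464351, minus strand): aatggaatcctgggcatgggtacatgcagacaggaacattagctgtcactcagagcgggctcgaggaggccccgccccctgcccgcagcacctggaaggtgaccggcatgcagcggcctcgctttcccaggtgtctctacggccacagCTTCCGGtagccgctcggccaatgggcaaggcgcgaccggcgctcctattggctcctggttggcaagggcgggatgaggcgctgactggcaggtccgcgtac

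None of the 81 genes was called different between MSN and ICR mice at an adjusted P-value under 0.05 (limma over all clusters with a gene). Of all 23410 clusters tested, 182 (0.777%) were called, 71 higher and 111 lower in MSN, a split that became 131 higher and 109 lower after quantile normalization and 115 and 89 with all arrays scaled to the same median. Without adjustment 5 of the 81 genes (6.17%) had a P-value under 0.05, against 12.7% of all clusters, and in 0 of the 81 were the strains without overlap, against 1.44% of all clusters. The log2 fold changes (MSN minus ICR) of the 81 genes had a median of 0.01 and lay between -0.21 for Cox7b2 and 0.13 for Ndufb10, with 46 above 0 and 35 below. In size they had a median of 0.032, against 0.047 over all tested clusters, and 77 of the 81 (95.1%) were smaller than 0.1, against 80.7% of all clusters. Of the 81 genes 74 were above the median brightness of all clusters. Among the 11705 clusters above it the median size was 0.042, and 83.95% were smaller than 0.1. The data also bound the differences: the 95% interval of the log2 fold change lay within 0.2 of 0 for 74 genes and within 0.3 for 80, the exception being Cox7b2. Over all 23410 clusters the interval lay within 0.2 for 16081 and within 0.3 for 21246. For the 11705 brighter clusters these counts were 9231 and 10895. A missed threshold does not show that the strains are alike, and smaller differences than these intervals allow were not resolved with 6 mice per strain.

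**Figure D1:**
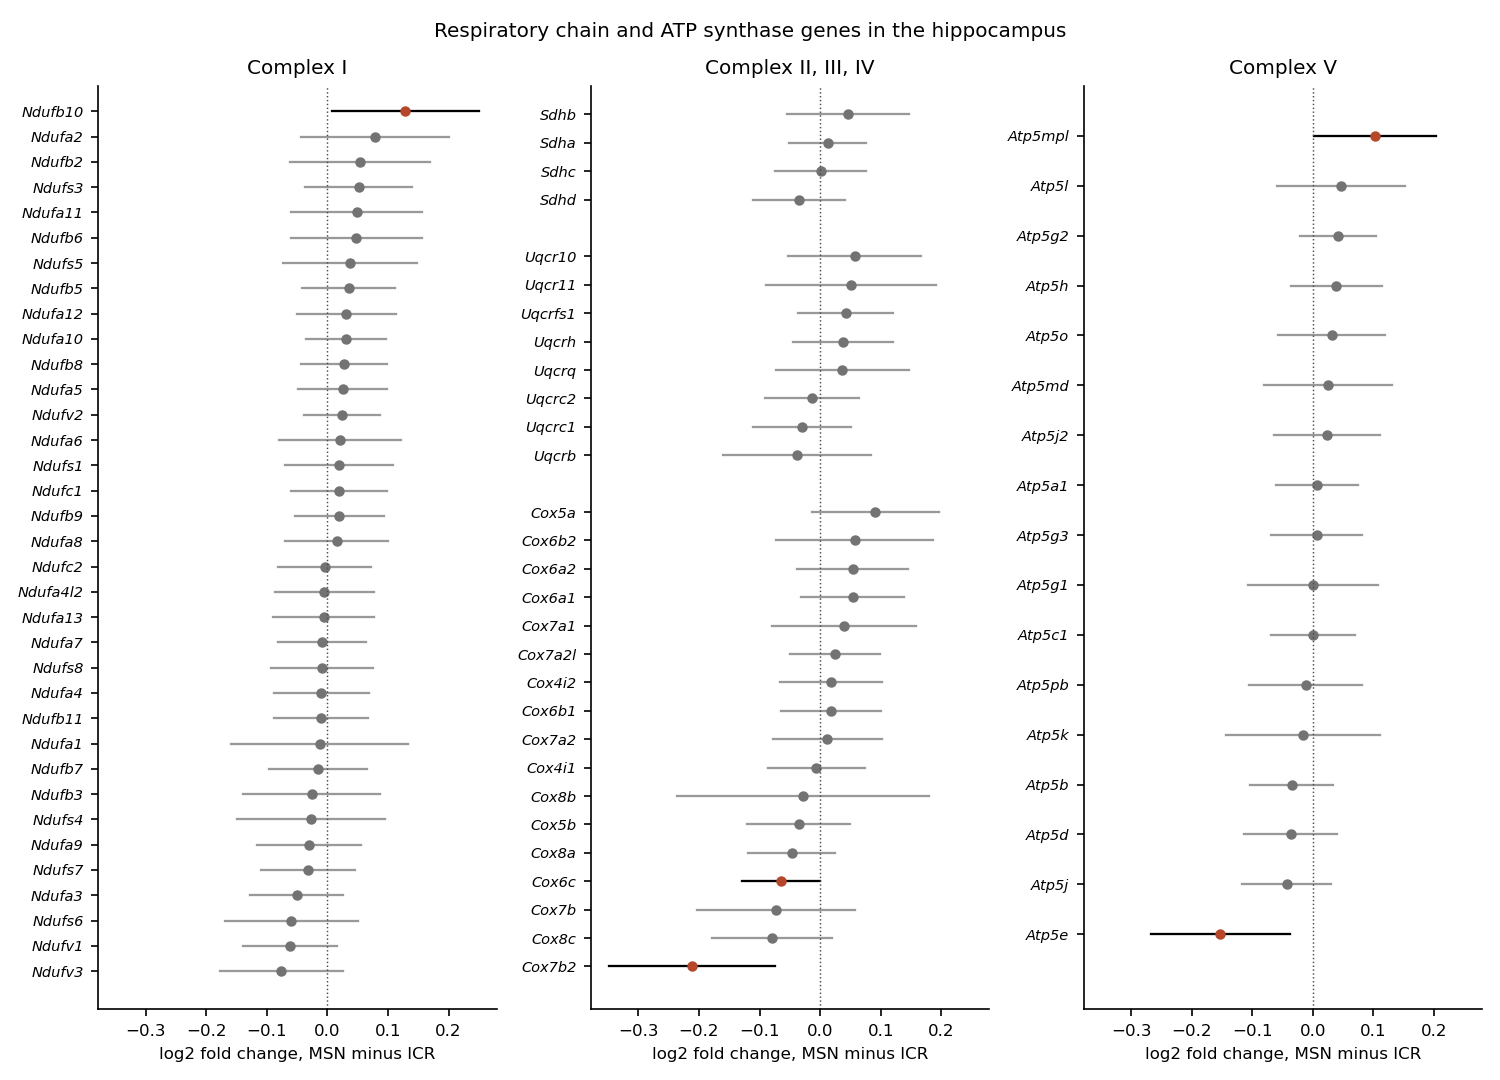
Log2 fold change (MSN minus ICR) of each of the 81 genes by complex, with its 95% interval from limma. Points in red with black lines are the 5 genes with an unadjusted P-value under 0.05; none of the 81 passed adjustment.

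The median log2 fold change was 0.02 in complex I, 0.01 in complex II, 0.04 in complex III, 0.01 in complex IV and 0.01 in complex V. Complex I is the largest of them and receives the electrons of NADH. Of its 35 genes 18 were above 0 and 17 below. The 6 measured core subunits, most of which carry the flavin or an iron-sulfur cluster, divided 3 and 3. Their log2 fold changes ranged from -0.06 to 0.05. Ndufs7, a core subunit next to the ubiquinone site, had a lowest, median and highest intensity of 8620, 9035 and 9418 in MSN and of 8645, 9305 and 9620 in ICR (log2 fold change = -0.03, adjusted P-value = 0.756). Ndufv1, which binds NADH, ran from 2068 over a median of 2149 to 2290 in MSN, against 2152, 2239 and 2368 in ICR (log2 fold change = -0.06, adjusted P-value = 0.519). The 28 genes grouped as accessory subunits, which surround the core, had a median of 0.02. Ndufa4 was counted among these 28. At their ends were Ndufb10, an accessory subunit of the membrane arm, and Ndufv3, a small subunit beside the NADH-binding module. Ndufb10 had intensities of 602.7, 729.3 and 762 (lowest, median and highest) in MSN and of 587.4, 647 and 680.6 in ICR. Of the 6 MSN mice 4 lay above every ICR mouse, but 1 MSN mouse lay among the lower ICR values, and the log2 fold change of 0.13 ± 0.06 (SE, n = 6 each, exact permutation P-value = 0.0606) had an adjusted P-value of 0.357 in limma. Ndufv3 had 1661, 1935 and 1971 in MSN against 1899, 1946 and 2091 in ICR, with overlapping strains, a log2 fold change of -0.08 and an adjusted P-value of 0.541. Ndufa4l2, a relative of Ndufa4 that is induced by low oxygen, had medians of 139 in MSN and 138.9 in ICR. Ndufa4 itself, named after complex I but known as a subunit of complex IV, had a median of 1476 in both strains.

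Complex II is also an enzyme of the citric acid cycle, and its 4 genes lay within 0.05 of 0. Sdha, the flavoprotein that oxidizes succinate, spanned 3734 to 3846 in MSN with a median of 3781, against 3586 to 3882 in ICR with a median of 3770 (log2 fold change = 0.01). Sdhb, the iron-sulfur subunit, had medians of 1505 in MSN and 1438 in ICR (log2 fold change = 0.05, adjusted P-value = 0.732), and Sdhd, a membrane anchor, had 1158 in MSN and 1185 in ICR (log2 fold change = -0.03, adjusted P-value = 0.735). In complex III, which passes electrons from ubiquinol to cytochrome c, 5 of 8 genes were above 0 and the core proteins Uqcrc1 and Uqcrc2 were both below, at -0.03 and -0.01. Uqcr10, a small subunit, had the highest log2 fold change at 0.06 (medians of 775.4 in MSN and 734.4 in ICR, adjusted P-value = 0.697), followed by Uqcr11, another small subunit, at 0.05 and by 0.04 each for Uqcrfs1, the Rieske iron-sulfur protein, and Uqcrh, the hinge protein (adjusted P-value = 0.793 for Uqcr11, 0.681 for Uqcrfs1 and 0.729 for Uqcrh). Uqcrb, at the ubiquinone site, had the lowest at -0.04 and varied much between mice, from 4598 over a median of 5210 to 5510 in MSN and from 4680 over 5225 to 5764 in ICR. Its low values came from MSN mice 2 and 5 and ICR mouse 5, and in its other 2 clusters the same 3 mice were again the lowest of the 12.

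Complex IV consumes the oxygen, and its genes come as general forms and as isoforms of other tissues. Cox7b2, an isoform known from testis, had the smallest P-value of the 81 in limma. Its intensities were 67.81, 74.77 and 85.54 (lowest, median and highest) in MSN, against 77.03, 88.83 and 101.9 in ICR. Only 1 ICR mouse fell within the MSN range, and the log2 fold change was -0.21 ± 0.06 (SE, n = 6 each, exact permutation P-value = 0.013, adjusted P-value = 0.165 in limma), a value that the 16 added to such low intensities makes smaller. Cox6c, a small nuclear subunit, had 9989, 10530 and 10740 in MSN, against 10710, 11010 and 11120 in ICR. The strains overlapped only at their edges, and the log2 fold change was -0.06 ± 0.03 (SE, n = 6 each, exact permutation P-value = 0.00433, adjusted P-value = 0.394 in limma). Cox5a, a nuclear subunit on the matrix side, had the highest log2 fold change of the complex at 0.09 (1202, 1326 and 1447 in MSN, against 1109, 1270 and 1296 in ICR, adjusted P-value = 0.471), and ICR mouse 6 gave the low end. Without that mouse the spread of the other ICR values was 1249 to 1296, inside the MSN range.

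Among the isoform pairs of complex IV no member was called. The lung form Cox4i2 had a log2 fold change of 0.02 and the general form Cox4i1 of -0.01. The heart and muscle forms Cox6a2, Cox7a1 and Cox8b had 0.05, 0.04 and -0.03, and their general partners Cox6a1, Cox7a2 and Cox8a had 0.05, 0.01 and -0.05. The testis forms Cox6b2, Cox7b2 and Cox8c had 0.06, -0.21 and -0.08, and their partners Cox6b1, Cox7b and Cox8a had 0.02, -0.07 and -0.05. Of the 7 isoforms of other tissues only 2 were above the median brightness of all clusters, against all 9 of the other subunits, and they varied more within a strain, with a median SD of 0.092 in MSN and 0.115 in ICR on the log2 scale, against 0.048 in MSN and 0.068 in ICR. The skeletal muscle markers measured beside them were dim too, 7 of 8 below the median brightness. Cox7a2l, a factor that joins complexes III and IV rather than a subunit, had medians of 840.2 in MSN and 817.9 in ICR (log2 fold change = 0.03).

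Single mice stood out in this complex. Cox7b, a small subunit, had 7011, 7304 and 7739 in MSN, against 7186, 7476 and 9544 in ICR, and the value of 9544 came from ICR mouse 3 while the other 5 ICR mice lay between 7186 and 7580. Its second cluster showed the same mouse apart from the others, at 6068, and without this mouse the log2 fold change of Cox7b was -0.01 in place of -0.07. Cox8b likewise had its highest value in 1 mouse, ICR mouse 2, without which its log2 fold change was 0.07 in place of -0.03. Cox8a, the general form of the smallest subunit, was close to constant in 5 MSN mice at 9374 to 9458 and lower in MSN mouse 2 at 8624, against 9251, 9593 and 9914 in ICR.

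ATP synthase is built of a catalytic F1 part in the matrix, a membrane ring of c subunits that turns with the proton flow, and a peripheral stalk that holds them together. The 5 F1 genes had a median of -0.03, the 4 stalk genes of 0.01, the 3 c ring genes of 0.01 and the 5 other membrane genes of 0.03. Atp5b, the beta subunit that forms the catalytic sites, spanned 9871 to 10740 in MSN with a median of 10430, against 10300 to 10830 in ICR with a median of 10700 (log2 fold change = -0.03, adjusted P-value = 0.703). Its partner Atp5a1, the alpha subunit, had medians of 5147 in MSN and 5087 in ICR. Atp5e, the epsilon subunit of the central stalk, had 419.8, 472.9 and 530.2 in MSN, against 484, 533.1 and 561.1 in ICR. In 3 MSN mice it was below every ICR mouse, and the log2 fold change was -0.15 ± 0.05 (SE, n = 6 each, exact permutation P-value = 0.0238, adjusted P-value = 0.241 in limma). Atp5mpl, a small membrane proteolipid, had 1255, 1283 and 1460 in MSN, against 1122, 1225 and 1301 in ICR, and its log2 fold change of 0.10 ± 0.05 (SE, n = 6 each, exact permutation P-value = 0.052) had an adjusted P-value of 0.386 in limma with 3 MSN mice above every ICR mouse. The genes Atp5g1, Atp5g2 and Atp5g3 encode the same mature c subunit, and their log2 fold changes were 0.001, 0.04 and 0.01. Atp5g2 had 3242, 3280 and 3384 in MSN, against 3102, 3201 and 3271 in ICR (exact permutation P-value = 0.026, adjusted P-value = 0.598 in limma).

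**Figure D2:**
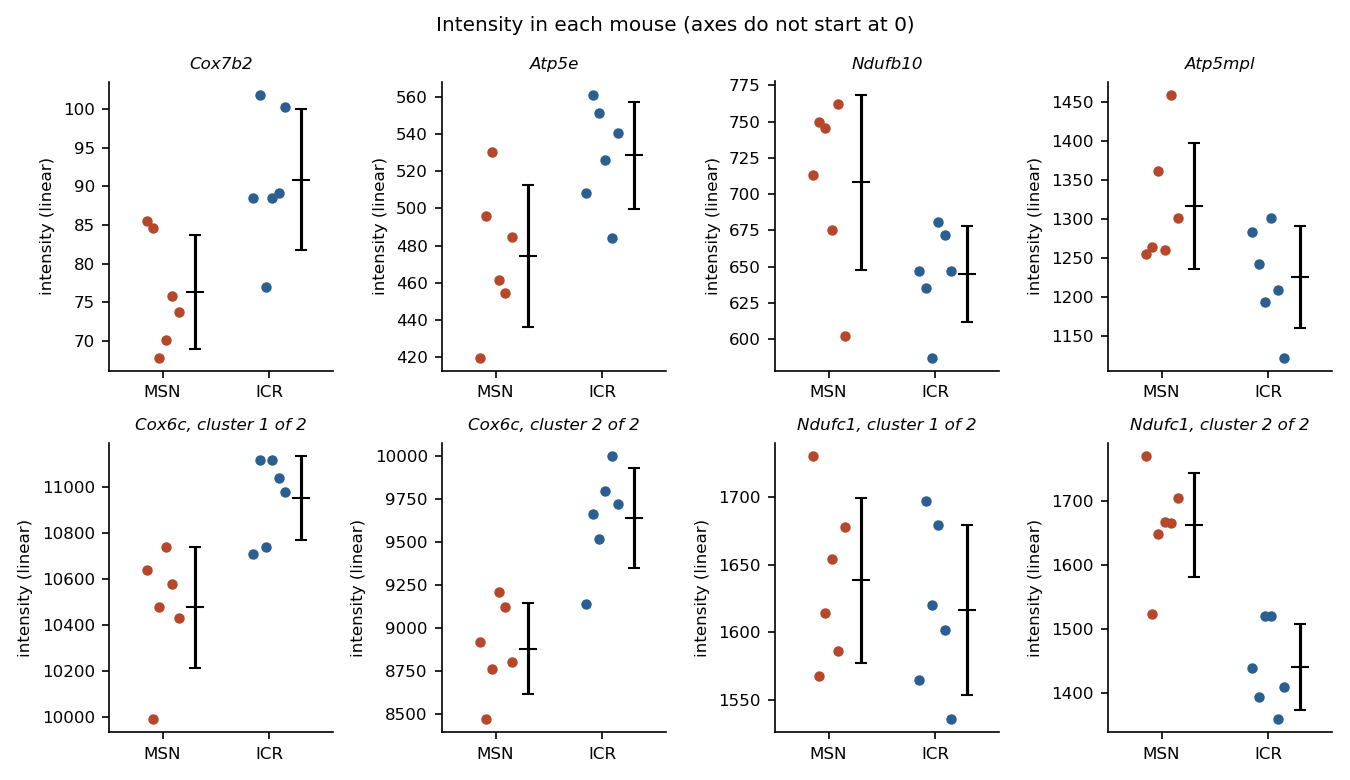
Deposited intensity (linear scale) in each of 6 MSN mice, in red, and 6 ICR mice, in blue, with the mean and SD beside the points, for the 5 genes with an unadjusted P-value under 0.05 and for both clusters of Cox6c and Ndufc1; the vertical axes do not start at 0. The strains overlap in each panel except the second cluster of Ndufc1.

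Of the 81 genes 16 were measured by more than 1 single-gene cluster, 40 clusters in all, and for 14 of the 16 the fold changes of the clusters of a gene lay within 0.1 of each other on the log2 scale. Ndufc1, an accessory subunit of the membrane arm of complex I, was the widest exception. Its brightest cluster had 1568, 1634 and 1730 in MSN, against 1536, 1611 and 1697 in ICR (log2 fold change = 0.02, adjusted P-value = 0.869). Its other cluster had 1523, 1666 and 1770 in MSN, against 1359, 1425 and 1521 in ICR. The strains had no overlap in it, as in 1.44% of all tested clusters. This cluster rose in MSN by 0.21 ± 0.04 on the log2 scale (SE, n = 6 each, expression ratio = 1.15, adjusted P-value = 0.0396). It was the single one called among the 105 clusters of the 81 genes, a share near the 0.777% called over all tested clusters. The call was close to the threshold: it was kept without MSN mouse 2, ICR mouse 3 or ICR mouse 4, and without any other of the mice the adjusted P-value was between 0.0617 and 0.0977. The platform annotation lists the same transcripts for both clusters, and which of them measures a copy of the gene elsewhere in the genome was not tested.

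Cox6c was lower in MSN in both of its clusters. Over all alternatives, which include the second cluster, its log2 fold change ran from -0.12 to -0.04 (adjusted P-value = 0.118 to 0.743 in limma). The next brightest of the 81 genes, Atp5b, Atp5d, Cox8a and Ndufs7, were also below 0, at -0.03, -0.04, -0.05 and -0.03. After quantile normalization Atp5b was at -0.006. The part of brightness and array scaling in the value of Cox6c was not tested. The second cluster of Cox6c had 8471, 8863 and 9207 in MSN, against 9142, 9691 and 9998 in ICR (log2 fold change = -0.12 ± 0.03, SE, n = 6 each, exact permutation P-value = 0.00433, adjusted P-value = 0.139 in limma), again with 1 ICR mouse inside the MSN range. Uqcr11, a small complex III subunit, had 0.05 and 0.13 in its clusters and neither was called. In Atp5g1, Atp5md, Atp5pb, Cox7a2l and Ndufb11 the clusters of a gene lay on both sides of 0, the widest in Cox7a2l at 0.03 and -0.08. Atp5l, a membrane subunit of ATP synthase with 6 clusters, lay above 0 in all of them, between 0.01 and 0.05. Cox7c and Ndufb4 had only clusters shared with another gene and are not among the 81: the log2 fold changes of these 5 clusters were between -0.04 and -0.002.

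**Figure D3:**
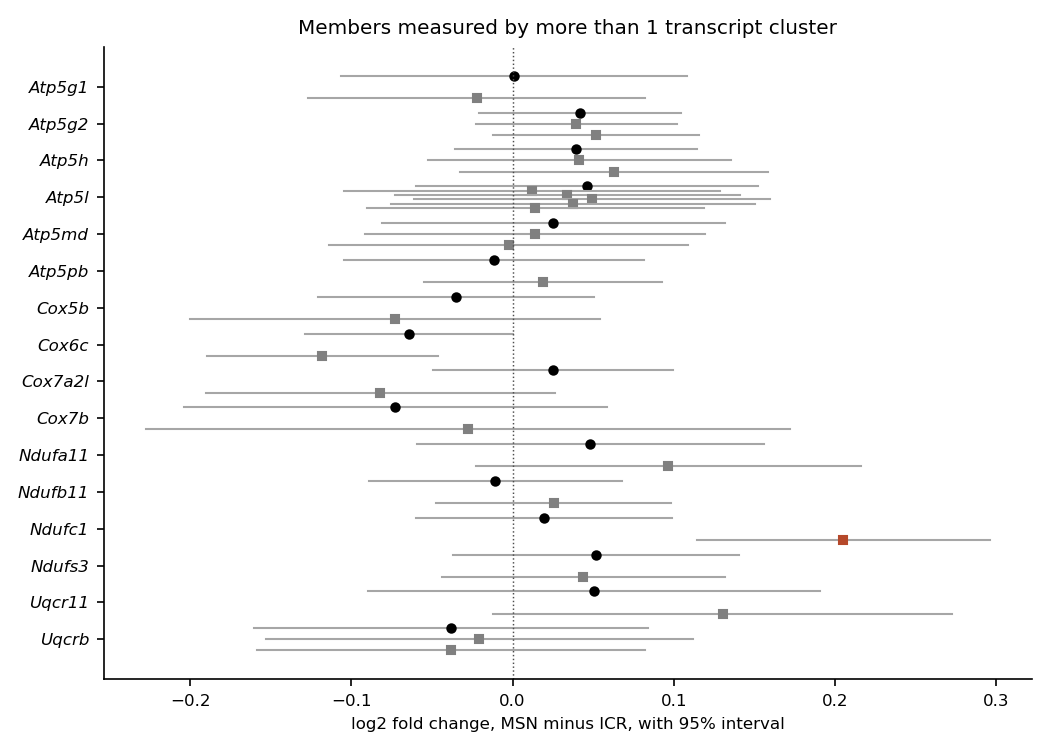
Log2 fold change (MSN minus ICR) with its 95% interval for each cluster of the 16 genes that have more than 1; black circles are the brightest cluster of a gene, squares the others, and red marks the cluster with an adjusted P-value under 0.05. The clusters of most genes lie close together and those of Ndufc1 lie apart, at 0.02 and 0.21.

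With the arrays as deposited, the 81 genes varied within a strain slightly less than the brighter clusters. Their median SD between mice was 0.062 in MSN and 0.061 in ICR on the log2 scale, against 0.068 in MSN and 0.070 in ICR over the clusters above the median brightness, where 74 of the 81 lie, and against 0.087 in MSN and 0.085 in ICR over all tested clusters. The SD was larger in MSN, the inbred strain, in 39 of the 81 genes. Scaling the arrays to the same median raised the median SD in MSN, as given below. Single mice were often at the low or high end across many genes. MSN mouse 2 had the lowest MSN value in 40 of the 81 genes (49.4%), while it had the lowest MSN value in 17.4% of all tested clusters. MSN mouse 5 had the highest MSN value in 31 of the 81 genes, against 15.6% of all tested clusters, and over all clusters it was the lowest MSN mouse most often, in 30.6%. Averaged over the 81 genes and set against the ICR mean, MSN mouse 2 was at -0.04 on the log2 scale. For the other 5 MSN mice this average was -0.01 to 0.03, and ICR mice spanned -0.03 to 0.03. MSN mouse 2 was the lowest MSN mouse in complexes I, III, IV and V, most so in complex III at -0.07. Its mean over the clusters above the median brightness was also low at -0.03, as was that of MSN mouse 6. Brighter clusters thus moved with these genes in MSN mouse 2, and the part of this shift in the result was not tested. Without MSN mouse 2 the median log2 fold change of the 81 genes was 0.02 and 0 were called. Among ICR mice, mouse 5 was lowest in 26 of the 81 genes, against 19.9% of all tested clusters, and mouse 4 highest in 25, against 13.7%, and in complex IV the ICR means ran from -0.06 in mouse 5 to 0.06 in mouse 2. In each complex the MSN and ICR means overlapped.

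**Figure D4:**
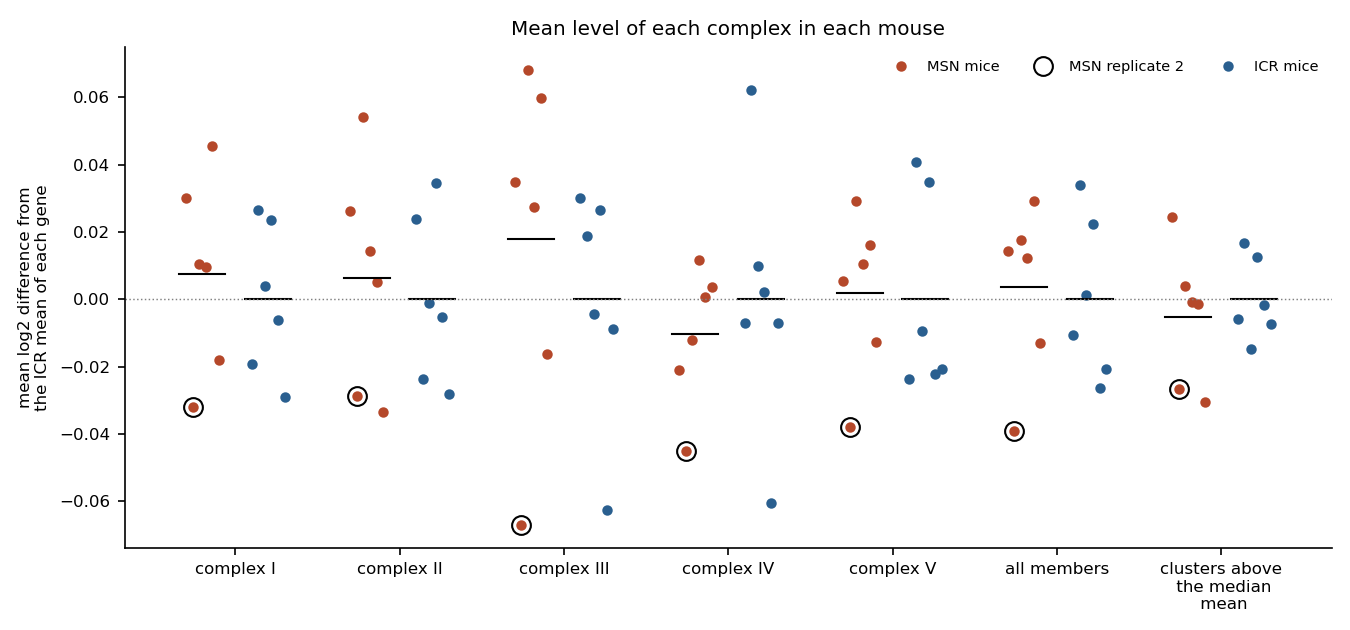
Mean over the genes of each complex in each mouse, as the log2 difference from the ICR mean of each gene, for 6 MSN mice (red) and 6 ICR mice (blue), beside the same over all 81 genes and over the tested clusters above the median brightness; black lines are strain means and open circles mark MSN replicate 2. The strains overlap in every column, and MSN replicate 2 is the lowest MSN mouse in complexes I, III, IV and V.

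Genes that work with the respiratory chain were taken from 10 lists with 118 measured genes of 141. Of these 2 were called, both higher in MSN, against 0.777% of all tested clusters, and 12 of the 118 had an unadjusted P-value under 0.05, against 12.7% of all tested clusters. Timmdc1, a membrane factor needed to assemble complex I, rose in MSN: its intensities were 1180, 1259 and 1368 in MSN, against 791.1, 968.5 and 1087 in ICR. No MSN mouse overlapped an ICR mouse, and the log2 fold change was 0.39 ± 0.07 (SE, n = 6 each, expression ratio = 1.31, adjusted P-value = 0.0195). Without ICR mouse 6 the adjusted P-value was 0.0504. It was the single called gene of 14 complex I assembly factors, whose median was 0.02. Coq2, the prenyltransferase of ubiquinone synthesis, rose as well, with 896.8, 979.4 and 1076 in MSN, against 676.1, 749.9 and 898.7 in ICR. The strains met at their edges by 1 mouse each, and the log2 fold change was 0.37 ± 0.07 (SE, n = 6 each, expression ratio = 1.29, adjusted P-value = 0.022). This call was lost without MSN mouse 2 (adjusted P-value = 0.0540), ICR mouse 5 (0.0522) or ICR mouse 6 (0.0562). Of the other measured genes of ubiquinone synthesis, Coq3, Coq5, Coq6, Coq7, Coq8a, Coq9 and Pdss2, none was called. The paper cautions that sequence changes in probe binding sites may have affected the values of some genes. For Timmdc1, Coq2 and the second cluster of Ndufc1 this was not tested.

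The assembly factors of complexes II and III spread most, with 0 of 10 called and log2 fold changes between -0.49 and 0.26. Lyrm7, a chaperone of the Rieske protein, had the lowest, with 274.1, 282.3 and 440.9 in MSN, against 315.1, 449.8 and 513.7 in ICR (adjusted P-value = 0.0828). Uqcc2, needed for the synthesis of cytochrome b, had the highest, with 1962, 2106 and 2330 in MSN, against 1587, 1728 and 2261 in ICR (adjusted P-value = 0.150). The Rieske protein gene Uqcrfs1 and the other complex III subunits did not pass in either direction, as given above. Among 17 complex IV assembly factors and 4 of ATP synthase 0 were called, and the medians were -0.002 and -0.02. For Cycs, which encodes cytochrome c, the log2 fold change was 0.09 (adjusted P-value = 0.436), and for Cyc1, the cytochrome c1 of complex III, it was -0.04 (adjusted P-value = 0.731).

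Of the 13 protein genes of mitochondrial DNA only 2 had a single-gene cluster. Nd3, of complex I, had 8966, 9432 and 10180 in MSN, against 9775, 10300 and 10720 in ICR (log2 fold change = -0.11 ± 0.04, SE, n = 6 each, exact permutation P-value = 0.0238, adjusted P-value = 0.286 in limma), and for Co2, of complex IV, it was -0.06 (adjusted P-value = 0.563). Regulators of respiratory genes were not called in either direction (0 of 15). Ppargc1a and Ppargc1b, coactivators of mitochondrial biogenesis, had -0.08 and -0.12 (adjusted P-value = 0.367 and 0.333), and Nrf1, Gabpa and Yy1, whose cores were counted in the promoters, had -0.02, 0.03 and 0.07 (adjusted P-value = 0.814, 0.865 and 0.512). The 37 members with a core of any of these factors had a median log2 fold change of 0.02 and the 29 with none of -0.01. In the citric acid cycle 0 of 17 genes were called, with Pdhb, the beta subunit of pyruvate dehydrogenase, lowest at -0.14 (adjusted P-value = 0.180), in exchange and uncoupling across the mitochondrial membranes 0 of 10, and in glycolysis 0 of 13.

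**Figure D5:**
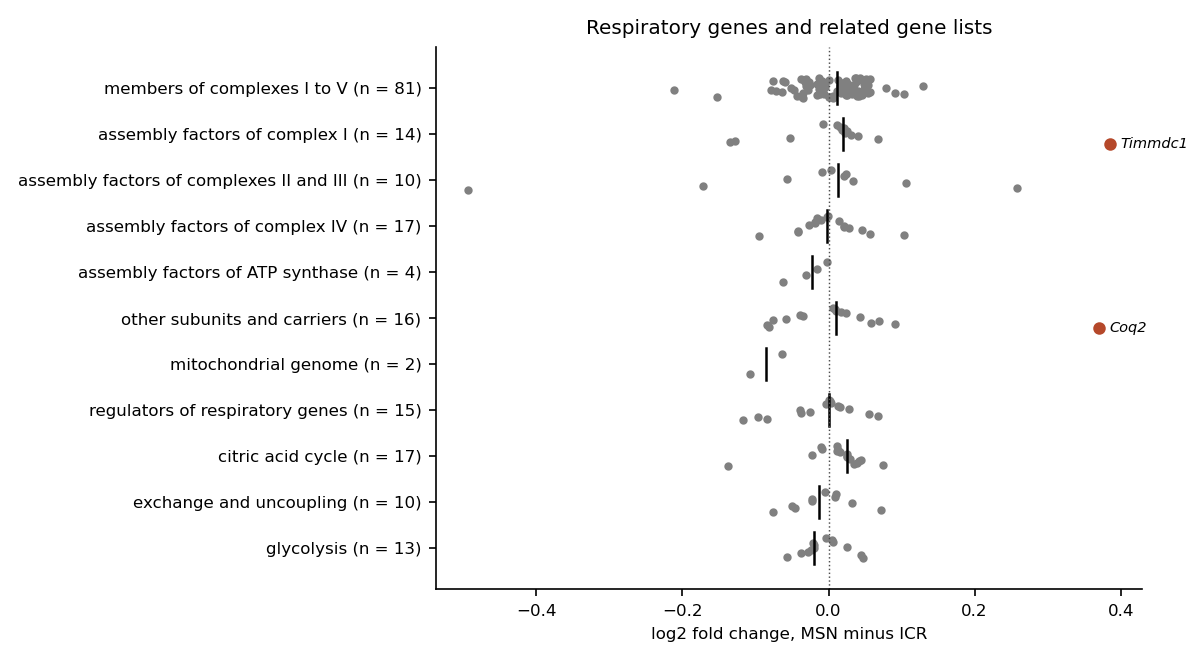
Log2 fold change (MSN minus ICR) of each gene of complexes I to V and of 10 related lists; black bars are medians, and red points with names are the genes with an adjusted P-value under 0.05. The 81 genes lie close to 0, and Timmdc1 at 0.39 and Coq2 at 0.37 are the only called genes of the lists.

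Arrays correlated at 0.989 to 0.995 within a strain and at 0.988 to 0.993 between strains, and all 12 hippocampal neuron markers were measured, 11 of them above the median brightness. Of the 12 neuron markers 8 were above 0 and 4 below, and 1 was called, against 0.777% of all tested clusters. This was Bok, a member of the Bcl-2 family that is strong in CA3, which was higher in MSN (log2 fold change = 0.36, adjusted P-value = 0.0305). Of 9 astrocyte markers 4 were above 0 and 5 below, and 0 were called. An unadjusted P-value under 0.05 was found for 4 of the 9, against 12.7% of all tested clusters, with Gfap, Aqp4 and Slc1a2 below 0 and Aldh1l1 above it at 0.19. The summed intensity of the 9 was 24290 to 26840 in MSN against 26680 to 28690 in ICR. Bright genes weigh most in such a sum, and Slc1a2 was its largest part, with means of 8372 in MSN and 9030 in ICR. Choroid plexus and ependyma markers were above 0 in 10 of 11, with summed intensities of 10440 to 25080 in MSN against 8719 to 25200 in ICR, and 0 were called. Mature oligodendrocyte, microglia and vessel markers were not called. Above 0 were 7 of 8, 6 of 8 and 5 of 9 of them. An unadjusted P-value under 0.05 in limma was found for 2, 1 and 1, against 12.7% of all tested clusters. In whole hippocampus, fewer cells of a type and less RNA per cell cannot be told apart, and the part of these cell types in the fold changes of respiratory genes was not tested.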

How the data were processed

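On 12 arrays (Affymetrix Mouse Gene 1.0 ST), RNA from the hippocampi of 6 MSN and 6 ICR mice was measured. Intensity values were deposited on a linear scale, computed by the authors with PLIER after correcting background within GC bins (Affymetrix Power Tools 1.12.0). Of 35556 transcript clusters, the 23410 that the platform annotation gives at least 1 gene were tested, 21789 of them with a single gene. Each intensity was raised by 16 and put on the log2 scale. Strain was the only term, as in the comparison by limma that the study's methods describe. Fitting used limma (version 3.58.1, functions lmFit and eBayes) under R 4.3.3. Adjustment was by Benjamini-Hochberg over all 23410 clusters, and a call required an adjusted P-value under 0.05. All tests were two-sided, and the permutation test enumerated every division of the 12 mice into 6 and 6. The fit was also run on simulated data in which clusters varied independently. Shifts shared by many genes in a mouse were therefore not covered by that check. The sources used here give neither scan dates nor batches, and precision is limited by the number of arrays. Brightness means intensity and does not rank the mRNA levels of different genes.

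The genes and lists were chosen with earlier results of these data known. Named genes were, in each complex, those with the 3 smallest P-values, the extreme fold changes and the extreme mean intensities, the tissue isoforms, genes whose clusters differ in direction, genes with 1 mouse apart by Dixon's test, and the top of each list. Ndufc1, Uqcr11, Uqcrc1, Uqcrc2, Atp5d, Atp5l, Ndufa11, Cox7c, Ndufb4, Cycs, Cyc1, Nrf1, Gabpa, Yy1, Bok, Gfap, Aqp4, Slc1a2, Aldh1l1, Co2 and the Coq genes beside Coq2 were named after their values were seen. Each result was recomputed on untransformed values, with 1 or 64 in place of 16, after quantile normalization or median scaling, with a variance trend and robust moderation, with array weights, with brighter clusters or all clusters, with another cluster per gene, with the replicate number as a block, and without each array. Promoter sequences are from RefSeq (GRCm38.p6), and all 81 genes were matched to RefSeq by gene ID. Because the array build was not named in the sources used here, no positions of clusters are given.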

Additional observations from a re-analysis of the deposited data

Results flagged for a closer look

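Within a strain, 10 of 162 groups of 6 values held 1 mouse far from the others by Dixon's test at 95%, 4 in MSN and 6 in ICR. Chance flags about 1 in 20 groups, so a number near this is not unusual. In MSN all 4 were mouse 2, which was low in Atp5a1 (4888, others 5101 to 5217), Cox8a (8624, others 9374 to 9458) and Sdhd (1078, others 1156 to 1195) and high in Atp5g2 (3384, others 3242 to 3292). In ICR, mouse 6 was low in Cox5a (1109, others 1249 to 1296), Cox7a2 (1735, others 1889 to 1961) and Ndufb2 (648.6, others 744.5 to 771.7). ICR mouse 3 was high in Cox7b (9544, others 7186 to 7580), ICR mouse 2 was high in Cox8b (307.6, others 177.9 to 218.5) and ICR mouse 5 was low in Cox8c (193.4, others 212.1 to 223.7). No cause of these values was tested.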

How the results depend on the processing

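Among the 81 genes 0 were called under every alternative except the choice of the dimmest cluster of each gene, which called 1, Ndufc1. For the 40 genes that the rule of naming selects, 954 values were computed under alternatives and 0 were called, while 48 uncalled values, from 15 genes, changed sign. The largest of these were Cox7a2l at -0.08 with its other cluster and Cox8b at 0.07 without ICR mouse 2. The median log2 fold change of the 81 genes was 0.038 and that of complex I 0.042 with arrays scaled to the same median, and the median SD of the 81 genes within MSN was then 0.081. Leaving out single mice moved the median of the 81 genes between 0.0042 and 0.020, that of complex I between 0.00016 and 0.027, that of complex II between -0.0037 and 0.018, that of complex III between 0.012 and 0.051, that of complex IV between -0.013 and 0.025 and that of complex V between -0.00044 and 0.020. The 182 calls over all clusters became 279 with a pseudocount of 64 and 315 with array weights, and 91 to 210 without single mice, with 103 without MSN mouse 3, 91 without MSN mouse 4, 118 without ICR mouse 5 and 93 without ICR mouse 6. In the related lists the 2 calls became 0 to 3 without single mice: 0 without ICR mouse 6, 1 without MSN mouse 2 or ICR mouse 5, and 3 without MSN mouse 6 or ICR mouse 3, with Lyrm7 added, as also under array weights, and without ICR mouse 4, with Uqcc2 added. The called cluster of Ndufc1 was at an adjusted P-value of 0.065 when clusters without a gene were tested too. The number of arrays limits what can be resolved.

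Replicate numbers do not pair the mice: same-numbered MSN and ICR mice correlated at -0.13 to 0.13 in their deviations, and only number 5 correlated best with its own. With the replicate number as a block 42 clusters were called, 0 of the 81 genes and 0 of the related lists (Timmdc1 at an adjusted P-value of 0.0502, Coq2 at 0.0658), and the second cluster of Ndufc1 was at 0.098.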
